A study of Mus musculus with 25 samples.

Results

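The adipogenic transcription factors are the regulators that turn precursor cells into fat cells and keep fat cells in that state. Measured here were 9 of them, Pparg, Cebpa, Cebpb, Cebpd, Rxra, Klf15, Ebf1, Ebf2 and Zfp423, chosen by gene symbol as 9 of the 22180 mouse genes with a transcript cluster of a single symbol on the array. A transcript cluster is the set of probes that the array assigns to one gene. Of the 9 genes, 8 had 1 cluster, and Ebf2 had a further one close to the bottom of the scale.

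The tissue was gonadal white fat of male heterozygous apoE3L.CETP mice, which carry transgenes for the human APOE*3-Leiden variant and human CETP, a plasma protein that moves cholesteryl esters between lipoproteins. The transgenes were shared by all groups, controls included. On HFD, with 60% fat and 0.25% cholesterol, there were 3 arrays after 4 weeks and 4 arrays after both 8 and 12 weeks. On LFD, with 10% fat and no stated cholesterol, there were 4 arrays after each of the 3 times. A baseline group of 2 arrays came from mice on chow at the age of 12 weeks, when the diets began. The ages given were 12 weeks for chow, 16 weeks for the 4-week groups, 20 weeks for the 8-week groups and 34 weeks for the 12-week groups, so at the last time the age in the labels exceeds 12 weeks of diet and time on diet is used here. HFD also replaced carbohydrate (20%, against 70% in LFD), so fat, cholesterol and carbohydrate differed together and cannot be told apart.

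Fat cell differentiation runs as a cascade. CEBPB and CEBPD are induced first by hormonal signals, and they switch on PPARG and CEBPA, which then maintain each other and activate the genes for lipid storage and insulin response. PPARG is a nuclear receptor that binds DNA as a pair with RXRA. EBF1, EBF2 and ZFP423 act in precursors, upstream of Pparg, and KLF15 acts with CEBPA late in the cascade and in the mature cell.

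All values are the deposited log2 expression values, and each difference is a log2 fold change ± its standard error (SE). Tests are limma's moderated test across all 22180 genes with Benjamini-Hochberg adjustment within each comparison, and a gene was called where the adjusted p was under 0.05. Levels are compared only between arrays of the same gene. The labels call the samples biological replicates, and the 2 to 4 arrays per group limit the precision.

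Some arrays stood apart. Chow array 1, HFD 4-week array 1 and LFD 4-week array 1 held transcripts of epididymis, which adjoins this fat depot, with a mean of 13 marker genes between 5.06 and 11.36, against at most 3.93 in the other arrays. Transcripts of hepatocytes were high in 11 of the 16 arrays of 8 and 12 weeks, with a mean of 19 marker genes between 9.69 and 11.46, against at most 7.96 in the other 14 arrays. Those 11 arrays were 3 HFD and 2 LFD arrays at 8 weeks and 3 HFD and 3 LFD arrays at 12 weeks. The labels give all mice as male, yet Xist, which female cells transcribe from the silenced X, reached 5.03 to 6.76 in those 11 arrays, against at most 3.92 elsewhere. Array medians lay between 5.04 and 5.36. The mean of 7 adipocyte markers lay between 11.93 and 12.38 in every array except chow array 1, where it was 11.17. Diet results are given with all 25 arrays, and for the members and most of the gene lists values in the 22 arrays without those 3 are given as well.

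**Figure D1:**
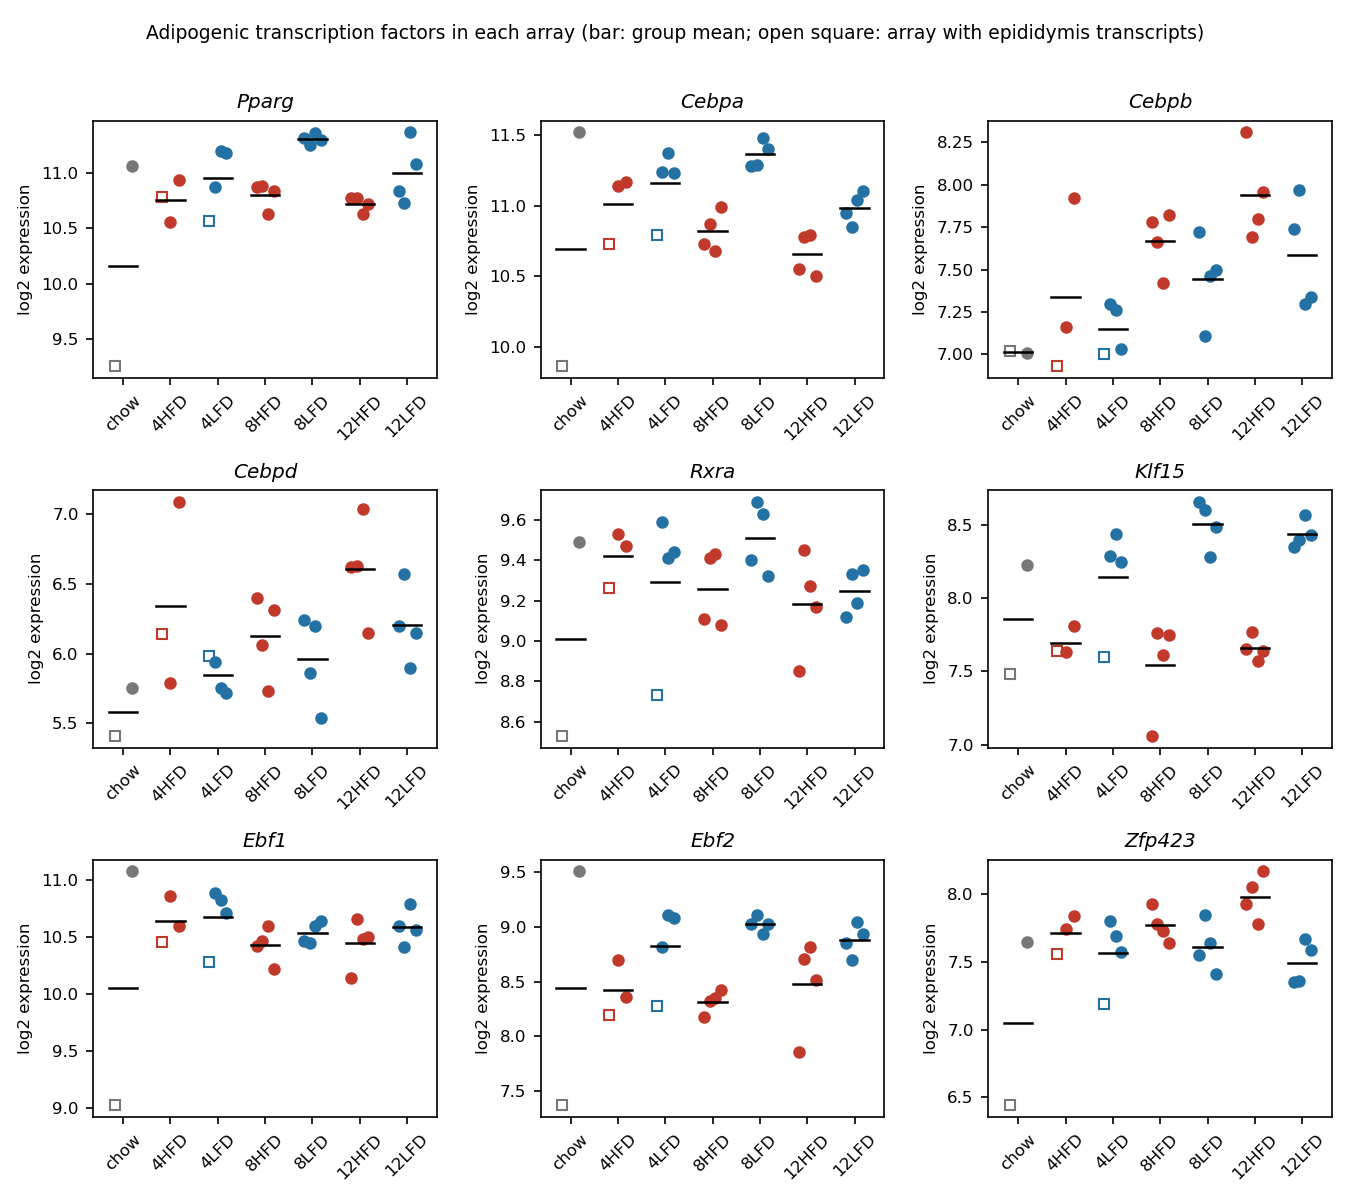
Log2 expression of the 9 genes (vertical axes, each with its own range) in the 25 arrays, by group along the horizontal axis. Circles are arrays, open squares are the 3 arrays with epididymis transcripts and bars are group means. The HFD and LFD arrays of Klf15 at 8 and 12 weeks form separate bands, and chow array 1 is the lowest array for every gene except Cebpb and Klf15.

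Klf15 was the member with a called difference between the diets in all 25 arrays, and it was lower on HFD. KLF15 is a Krüppel-like zinc finger protein that is induced by glucocorticoids and activates the gene for the insulin-responsive glucose transporter in cultured mouse fat cells. At 8 weeks Klf15 fell 1.95-fold and at 12 weeks 1.72-fold on HFD relative to LFD. Of the other 8 members, 0 were called at any single time with all 25 arrays.

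Klf15 lies at chr6:90461043-90491803 in GRCm38.p6. Its promoter is shown because this gene had the largest difference between the diets among the members at 8 and 12 weeks. The RefSeq start used lies inside the span just given. The 250 bases before that start, chr6:90462326-90462575 on the + strand, are printed with capitals marking CACGTG, a palindromic E-box.
Klf15: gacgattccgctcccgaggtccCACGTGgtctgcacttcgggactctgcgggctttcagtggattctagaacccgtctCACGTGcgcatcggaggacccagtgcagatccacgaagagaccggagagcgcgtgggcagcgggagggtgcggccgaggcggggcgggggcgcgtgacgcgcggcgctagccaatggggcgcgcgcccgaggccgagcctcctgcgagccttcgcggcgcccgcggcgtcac
The matches begin 228 and 172 bases before this RefSeq start and do not overlap. Of 32841 promoter windows of this length in the table, 6.02% held at least 1 CACGTG on either strand and 0.429% held 2 or more. Among the 12 windows available for 7 of the members, Klf15's was the only one with this motif. A match is a run of letters and not a measured binding site.

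Klf15 levels at 8 weeks were 7.06, 7.76, 7.61 and 7.75 on HFD, against 8.66, 8.60, 8.28 and 8.49 on LFD. Every HFD array lay below every LFD array, and the lowest value was HFD array 1. The group means were 7.55 ± 0.33 on HFD and 8.51 ± 0.17 on LFD (SD, n = 4 each), a difference of -0.96 ± 0.18 (SE; limma, adjusted p = 0.00524; 3.00e-04 in the 22 arrays).

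At 12 weeks Klf15 levels were 7.65, 7.77, 7.57 and 7.64 on HFD, against 8.35, 8.40, 8.57 and 8.43 on LFD. The ranges did not overlap, and both groups were tight. The means were 7.66 ± 0.08 on HFD and 8.44 ± 0.09 on LFD (SD, n = 4 each), a difference of -0.78 ± 0.18 (SE; limma, adjusted p = 0.0107; 7.80e-04 in the 22 arrays).

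At 4 weeks Klf15 levels were 7.64, 7.63 and 7.81 on HFD, against 7.60, 8.29, 8.44 and 8.25 on LFD. The groups overlapped through LFD array 1, one of the 3 arrays with epididymis transcripts. The difference was -0.45 ± 0.19 (adjusted p = 0.453), and in the 22 arrays it was -0.61 ± 0.17 (adjusted p = 0.156). Neither passed the test.

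The order of the Klf15 group means ran from LFD at 8 weeks, the highest, through LFD at 12 weeks, LFD at 4 weeks, chow, HFD at 4 weeks and HFD at 12 weeks to HFD at 8 weeks. The 3 LFD groups stood above chow and the 3 HFD groups below it. Each group overlapped with its neighbour in this order, so adjacent positions are not told apart. In bulk tissue a lower value can reflect less RNA per cell or fewer cells of the type that makes it, and these cannot be told apart.

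Counts of members are read against all genes. In all 25 arrays, 0 of 9 members were called at 4 weeks, where 0.212% of genes were called, with 1 member and 2069 genes at an unadjusted p under 0.05. One member, Klf15, was called at 8 weeks, where 2.4% of genes were called, and again at 12 weeks, where the share was 4.46%. The median member difference was -0.04, -0.25 and -0.15 at 4, 8 and 12 weeks, beside medians of all genes within 0.01 of 0. At 8 weeks 4 members had HFD arrays wholly below LFD arrays, and at 12 weeks 3 members were separated, 2 lower and 1 higher on HFD. Groups were separated in either direction for 11.4% of all genes at 8 weeks and for 12.6% at 12 weeks, against 0 members and 9.09% of genes at 4 weeks.

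**Figure D2:**
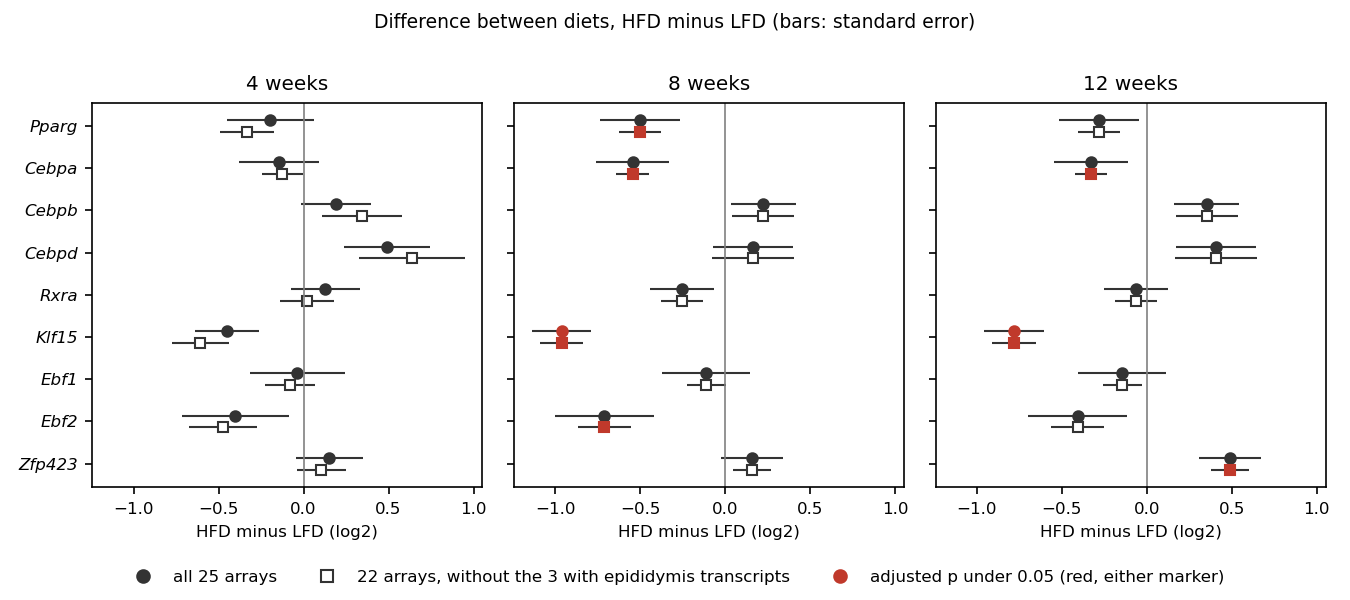
Differences between the diets, HFD minus LFD in log2 units on the horizontal axes, for the 9 genes at 4, 8 and 12 weeks. Circles are the fit to all 25 arrays, squares the fit to 22 arrays, bars the SE and red an adjusted p under 0.05. At 8 and 12 weeks both fits give the same differences, and 4 genes at 8 weeks and 3 at 12 weeks are red in the 22 arrays.

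Pparg and Cebpa, the self-sustaining pair at the core of the cascade, were both lower on HFD at 8 weeks. PPARG is the receptor for the thiazolidinedione drugs and is required for fat cells to form. CEBPA is a leucine zipper protein that sustains Pparg and insulin sensitivity. With all 25 arrays neither was called, and in the 22 arrays both were.

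Promoter letters of this pair are shown because each protein is known to bind at the gene of the other. Pparg lies at chr6:115360879-115490404 and Cebpa at chr7:35119293-35121928. In the RefSeq window before the third and most downstream Pparg start, chr6:115421816-115422065 (+, GRCm38.p6), capitals mark TTGCNNAA, a core of the CEBP site, on either strand. In the window before the Cebpa start, chr7:35119043-35119292 (+, GRCm38.p6), capitals mark TATAAA.
Pparg: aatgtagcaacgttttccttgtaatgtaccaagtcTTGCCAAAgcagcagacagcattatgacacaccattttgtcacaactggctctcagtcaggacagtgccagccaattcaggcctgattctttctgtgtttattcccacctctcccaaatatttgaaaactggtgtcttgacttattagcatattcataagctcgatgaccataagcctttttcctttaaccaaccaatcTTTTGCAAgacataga
Cebpa: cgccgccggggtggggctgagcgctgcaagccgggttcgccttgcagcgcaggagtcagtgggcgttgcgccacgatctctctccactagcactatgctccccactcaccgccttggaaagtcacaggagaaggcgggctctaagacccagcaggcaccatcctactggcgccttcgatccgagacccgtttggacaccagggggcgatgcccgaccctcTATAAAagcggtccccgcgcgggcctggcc
The Pparg matches begin 215 and 16 bases before the start. At least 2 such matches occur in 0.572% of the 32841 windows and at least 1 in 9.57%. The windows before the other Pparg starts held 0. These shares are per window and do not allow for the choice of 1 window from a gene with several. The Cebpa match begins 30 bases before the start, and TATAAA occurs in 12.4% of windows. The direct repeat of the PPAR response element, searched as its exact consensus, occurs in 0.0335% of windows and in 0 of the 12 member windows. The Cebpa window held 0 matches of this repeat and 0 of TTGCNNAA, and its marked TATAAA is neither of them.

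Pparg levels at 8 weeks were 10.87, 10.88, 10.63 and 10.84 on HFD, against 11.32, 11.25, 11.36 and 11.30 on LFD. The HFD arrays all lay below the LFD arrays, and HFD array 3 was the lowest. The difference was -0.50 ± 0.24 with all arrays (adjusted p = 0.346) and -0.50 ± 0.12 in the 22 arrays (adjusted p = 0.0194). The size is the same because the 3 arrays are not in these groups, and only the estimate of the spread differs.

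Pparg levels at 12 weeks were 10.77, 10.77, 10.63 and 10.72 on HFD, against 10.84, 10.73, 11.37 and 11.08 on LFD. LFD array 2 lay within the HFD range, and LFD array 3 was the highest. The difference was -0.28 ± 0.24 (adjusted p = 0.642; 0.190 in the 22 arrays). At 4 weeks it was -0.20 ± 0.26 (adjusted p = 0.87; in the 22 arrays -0.33 ± 0.16 and 0.518), with values of 10.78, 10.56 and 10.94 on HFD and 10.57, 10.87, 11.20 and 11.18 on LFD.

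Cebpa levels at 8 weeks were 10.73, 10.87, 10.68 and 10.99 on HFD, against 11.28, 11.29, 11.48 and 11.40 on LFD. The ranges did not overlap. The difference was -0.54 ± 0.22 with all arrays (adjusted p = 0.227) and -0.54 ± 0.10 in the 22 arrays (adjusted p = 0.00214), a fall of 1.46-fold.

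Cebpa levels at 12 weeks were 10.55, 10.78, 10.79 and 10.50 on HFD, against 10.95, 10.85, 11.04 and 11.10 on LFD. The ranges again did not overlap, although the highest HFD and the lowest LFD array were close. The difference was -0.33 ± 0.22 with all arrays (adjusted p = 0.511) and -0.33 ± 0.10 in the 22 arrays (adjusted p = 0.0342). At 4 weeks Cebpa was 10.73, 11.14 and 11.17 on HFD and 10.79, 11.24, 11.37 and 11.23 on LFD, with overlapping ranges.

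Rxra, the partner receptor of PPARG at chr2:27676445-27763319, was not called at any time in either fit. Its range at 8 weeks was 9.08 to 9.43 on HFD and 9.32 to 9.69 on LFD. At 12 weeks it was 8.85 to 9.45 on HFD and 9.12 to 9.35 on LFD. The differences were 0.13 ± 0.20, -0.25 ± 0.19 and -0.06 ± 0.19 at 4, 8 and 12 weeks.

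Ebf1, Ebf2 and Zfp423 are factors of precursor cells. Ebf2, a helix-loop-helix factor of precursors that also marks brown and beige fat cells, was lower on HFD at 8 weeks, and Zfp423, a zinc finger factor of committed precursors that holds white fat cells back from a thermogenic state, was higher on HFD at 12 weeks. Neither was called with all 25 arrays, and both were in the 22 arrays. Ebf1, a relative of Ebf2 that is also known from B cell development, was called in neither.

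Ebf2 (chr14:67233292-67430952) was 8.18, 8.32, 8.35 and 8.42 on HFD at 8 weeks, against 9.03, 9.11, 8.94 and 9.03 on LFD. The groups were far apart and each was tight. The difference was -0.71 ± 0.29 with all arrays (adjusted p = 0.249) and -0.71 ± 0.15 in the 22 arrays (adjusted p = 0.00925), a fall of 1.64-fold.

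At 12 weeks Ebf2 was 7.86, 8.71, 8.82 and 8.52 on HFD, against 8.85, 8.70, 9.05 and 8.94 on LFD. The ranges overlapped, and HFD array 1 was the lowest by a wide margin. The difference of -0.41 ± 0.29 was not called (adjusted p = 0.558), nor was that of -0.40 ± 0.31 at 4 weeks. The other Ebf2 cluster had group means between 2.84 and 3.27 and differences of -0.20, -0.15 and -0.36 at 4, 8 and 12 weeks, also uncalled.

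Zfp423 (chr8:87661810-87962053) was 7.93, 8.05, 7.78 and 8.17 on HFD at 12 weeks, against 7.35, 7.36, 7.67 and 7.59 on LFD. Every HFD array lay above every LFD array. The difference was 0.49 ± 0.18 with all arrays (adjusted p = 0.153) and 0.49 ± 0.11 in the 22 arrays (adjusted p = 0.00852).

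At 8 weeks Zfp423 ranged over 7.64 to 7.93 on HFD and 7.41 to 7.85 on LFD, and at 4 weeks over 7.56 to 7.84 on HFD and 7.19 to 7.80 on LFD. The differences were 0.16 ± 0.18 and 0.15 ± 0.20, and the groups overlapped at both times. Ebf1 (chr11:44618100-45008096) ranged over 10.22 to 10.60 on HFD and 10.45 to 10.64 on LFD at 8 weeks, and 10.14 to 10.66 on HFD and 10.41 to 10.79 on LFD at 12 weeks. Its differences lay between -0.15 and -0.04 at the 3 times.

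The early factors Cebpb (chr2:167688915-167690432) and Cebpd (chr16:15887286-15889545) had positive differences at each time, and none passed the test in either fit. Cebpb was 8.31, 7.69, 7.80 and 7.96 on HFD at 12 weeks, against 7.74, 7.97, 7.30 and 7.34 on LFD. HFD array 1 was the highest, and LFD arrays 1 and 2 lay among the HFD arrays. The difference was 0.35 ± 0.19 (adjusted p = 0.388).

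Cebpd was 6.62, 6.63, 7.04 and 6.15 on HFD at 12 weeks, against 6.20, 6.57, 5.90 and 6.15 on LFD, a difference of 0.41 ± 0.23. The other 3 HFD arrays lay above every LFD array, and the groups overlapped through HFD array 4. At 4 weeks its difference was 0.49 ± 0.25 (adjusted p = 0.579), and HFD array 3 alone reached 7.09. The same array was also the highest of its group for Cebpb, at 7.92.

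The calls of Pparg, Cebpa and Ebf2 at 8 weeks also appeared when either single chow array was left out, and so did the call of Zfp423 at 12 weeks. Leaving out either chow array takes the spread within chow out of the fit. In the 22 arrays 4 members were called at 8 weeks, where 5.64% of genes were called, and 3 at 12 weeks, where 8.41% were called. At 4 weeks 0 members were called there, beside 0.298% of genes. Unadjusted p values were under 0.05 for Pparg, Klf15 and Ebf2, and the number of all genes at that level is not given for this fit.

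The mean of the 3 times asks for a diet difference shared by 4, 8 and 12 weeks. Klf15 was -0.73 ± 0.10 (adjusted p = 6.86e-05) and was the 1 member called, where 10.5% of all genes were called. It stayed called without each of the 25 arrays in turn. Ebf2 was -0.51 ± 0.17 (adjusted p = 0.0654), Cebpa -0.34 ± 0.13 (adjusted p = 0.104) and Pparg -0.33 ± 0.14 (adjusted p = 0.166).

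The positive differences in that mean were 0.35 ± 0.14 for Cebpd (adjusted p = 0.121), 0.27 ± 0.11 for Zfp423 (adjusted p = 0.138) and 0.25 ± 0.11 for Cebpb (adjusted p = 0.184). Of the 9 members 7 had an unadjusted p under 0.05, and so did 4851 of the 22180 genes. Rxra at -0.06 ± 0.11 and Ebf1 at -0.10 ± 0.15 were the other members.

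In the 22 arrays 5 members were called in the mean of the 3 times, where 13.3% of genes were called. Pparg at -0.37, Cebpa at -0.33, Klf15 at -0.78 and Ebf2 at -0.53 were lower on HFD, and Zfp423 at 0.25 was higher. The adjusted p values were 0.00261 for Pparg, 7.44e-04 for Cebpa, 4.13e-06 for Klf15, 8.93e-04 for Ebf2 and 0.0224 for Zfp423. Cebpb and Cebpd stayed above the threshold.

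Whether the diet difference changed with time was asked by the interaction of diet and time. By limma's moderated F test 0 members and 0% of all genes were called, with 0 members and 1199 genes at an unadjusted p under 0.05. With all arrays Klf15 had the smallest unadjusted p of the members, 0.161. In the 22 arrays it was Cebpa, at 0.0402 (adjusted p = 0.658), followed by Zfp423 at 0.067, and 0 members were called. A larger difference at 8 weeks than at 12 weeks was therefore not shown for any member.

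With all 25 arrays and no covariates, no member was called for change over time within a diet. On HFD 0 members were called at 8 against 4 weeks, where limma called 0% of genes and 1964 genes had an unadjusted p under 0.05, and 0 at 12 against 4 weeks, where 0.573% of genes were called. On LFD 0 members were called at 8 against 4 weeks (0.636% of genes) and 0 at 12 against 4 weeks (0.681% of genes). Cebpb averaged 7.94 at 12 weeks on HFD and 7.34 at 4 weeks, and the difference of 0.60 ± 0.21 was not called (adjusted p = 0.234). On LFD the same difference was 0.44 ± 0.19 (adjusted p = 0.273). The 4-week groups were younger and held 0 arrays with high hepatocyte markers, unlike the later groups. Age and hepatocyte RNA thus changed along with time on diet, and their part was not tested. When both marker levels, of hepatocytes and of epididymis, were adjusted for, Cebpa was called lower at 12 than at 4 weeks on HFD. That difference was -0.64 ± 0.16 (limma, adjusted p = 0.0439), and the share of all genes called there is not given.

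Comparisons with chow rested on 2 arrays that disagreed. Pparg was 9.25 and 11.06, Cebpa 9.86 and 11.52, Ebf2 7.37 and 9.51 and Klf15 7.48 and 8.23 in chow arrays 1 and 2. Array 1, with a mean epididymis level of 11.36, was the lower for every member except Cebpb, which was 7.02 and 7.01. The 7 adipocyte markers were lower in it too.

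With all arrays, Zfp423 at 0.78 (adjusted p = 0.0107), Cebpd at 0.78 (adjusted p = 0.0412) and Cebpb at 0.63 (adjusted p = 0.0414) were called higher on HFD, averaged over the 3 times, than on chow, where 15.7% of genes were called. Pparg was called higher on LFD than on chow at 0.93 (adjusted p = 0.0237), where 10.6% were called. Both comparisons share the chow arrays. The chow mice were 12 weeks old, against 16 to 34 weeks in the diet groups. High hepatocyte markers were found in 0 chow arrays and in 11 arrays of the diet groups. Age and hepatocyte RNA thus differed along with diet, and their part in these calls was not tested. When both marker levels, of hepatocytes and of epididymis, were adjusted for, 0 members were called in either comparison.

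In the 22 arrays, with 1 chow array left, none of these 4 calls held. Cebpa at -0.64 (adjusted p = 0.0124) and Ebf2 at -1.07 (adjusted p = 0.0111) were then called lower on HFD than on chow, where 5.3% of genes were called, and 0 members were called for LFD against chow, where 1.65% were called. Those fits assume that the lone chow array varies like the other groups. Without chow array 1 alone, the differences on HFD turned to -0.30 for Pparg, -0.69 for Cebpa, -0.20 for Rxra and -0.58 for Ebf1, and those on LFD to -0.35 for Cebpa, -0.14 for Rxra, -0.48 for Ebf1 and -0.60 for Ebf2.

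Other activators of fat cell formation, a list of 20 measured genes, fell where they were called with all arrays. At 8 weeks 2 were lower on HFD and 0 higher, with a list median of -0.22 beside -0.01 for all genes. Mlxipl, the carbohydrate-responsive factor ChREBP, was -1.11 ± 0.21 (limma, adjusted p = 0.00668), and Zfp467, a zinc finger cofactor that promotes the fat cell fate, was -0.68 ± 0.18 (adjusted p = 0.0468). At 12 weeks Mlxipl alone was called, at -1.15 ± 0.21 (adjusted p = 0.00226), and at 4 weeks 0 were called.

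Over the mean of the 3 times 6 of the 20 activators were lower and 0 higher, beside 10.5% of all genes called in either direction. Those with the smallest p were Mlxipl at -1.002, Zfp467 at -0.50, Nfia at -0.45 and Stat5a at -0.27. NFIA works beside EBF2 in brown fat cells, and STAT5A relays growth hormone and prolactin signals. Over the 22 arrays 6 were called lower and 3 higher in that mean, and at 8 weeks 6 were called lower. The higher ones were Egr2 at 0.73, Klf4 at 0.43 and Klf6 at 0.27, factors known from the early steps of differentiation.

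Of 8 PPARG coactivators, Ppargc1a, which drives mitochondrial genes, was called lower on HFD at 8 weeks (-0.95 ± 0.18, adjusted p = 0.00645) and at 12 weeks (-0.76 ± 0.18, adjusted p = 0.0152). In the mean of the 3 times Ppargc1b joined it at -0.60, with Ppargc1a at -0.71. The 8 genes had list medians of -0.09 at 8 weeks and 0.07 at 12 weeks, and the other 6 genes were not called.

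Of 15 measured inhibitors of adipogenesis, 0 were called at 4, 8 or 12 weeks. Averaged over the 3 times, Wwtr1, the TAZ cofactor, was higher at 0.40, and Nr2f2 at -0.23 and Sirt1 at -0.18 were lower. Without the 3 arrays Tcf7l2, a WNT pathway factor, was called lower at 8 weeks (-0.41, adjusted p = 0.0246) and at 12 weeks (-0.47, adjusted p = 0.00707), and Wwtr1 was called higher at 12 weeks (0.37, adjusted p = 0.0174).

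Target genes of PPARG and CEBPA split. Of 18 measured, 2 were lower on HFD at 8 weeks, Slc2a4, the insulin-responsive glucose transporter, at -1.08 ± 0.23 (adjusted p = 0.0139) and Agpat2, an enzyme of triglyceride synthesis, at -0.61 ± 0.16 (adjusted p = 0.0402). Slc2a4 was again lower at 12 weeks, at -0.998 ± 0.229 (adjusted p = 0.0122). In the mean of the 3 times, where 10.5% of all genes were called, 3 targets were lower and 2 higher, the higher ones being Angptl4, an inhibitor of lipoprotein lipase, at 1.10 and Lep, the hormone leptin, at 0.57. Among the 22 arrays 1 target was called higher and 4 lower at 8 weeks, 2 higher and 2 lower at 12 weeks, and 2 higher and 4 lower in the mean.

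Other well-known targets differed little. Adipoq, the hormone adiponectin, was 0.01, -0.07 and -0.02 at 4, 8 and 12 weeks, and Fabp4, the fatty acid carrier, was -0.01, -0.03 and -0.02. Plin1, the lipid droplet coat, was 0.07, -0.42 and -0.29, uncalled with all arrays and called at 8 weeks in the 22 arrays (adjusted p = 0.0213). The median of the 18 genes was -0.09 at 8 weeks and -0.02 at 12 weeks.

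Genes known to respond to glucocorticoids, as Klf15 does, were not called at any single time among 10 measured. Averaged over time, Mt2 was higher at 0.51 and Per1 lower at -0.40, where 10.5% of all genes were called (13.3% in the 22 arrays). Per1 was no longer called in the 22 arrays (adjusted p = 0.0623) and Pdk4, a brake on glucose oxidation, was called higher at 0.63 (adjusted p = 0.0185). The list medians with all arrays were -0.04, 0.24 and 0.09 at 4, 8 and 12 weeks.

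Among markers of other cell types, the macrophage list had the most calls. Of its 10 genes 0, 5 and 9 were called at 4, 8 and 12 weeks with all arrays and 0, 8 and 10 in the 22 arrays, each of them higher on HFD. Their mean per array was 9.13 to 9.88 on HFD and 8.52 to 8.65 on LFD at 8 weeks, and 9.32 to 9.82 on HFD and 8.19 to 8.68 on LFD at 12 weeks. Both pairs of ranges were apart, as those of Klf15 and Cebpa were. The part of macrophage RNA in the member differences was not tested.

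The mean of the 7 adipocyte markers overlapped between the diets, with 12.13 to 12.24 on HFD and 12.12 to 12.38 on LFD at 8 weeks, and 12.06 to 12.24 on HFD and 12.05 to 12.27 on LFD at 12 weeks. With all arrays 0 of them were called at a single time. Of 8 progenitor and fibroblast markers Lum was called higher at 12 weeks at 1.06, and of 6 B cell markers Cd22 at 0.63. Pdgfrb was also called higher at 12 weeks in the 22 arrays (0.60, adjusted p = 0.0172), and there, of the adipocyte markers, Plin1 was called lower at 8 weeks and Lep higher at 12 weeks. Of 6 mesothelial and 7 endothelial markers 0 were called at any time in either fit. All 6 mesothelial markers had differences below 0 at 12 weeks, with a list median of -0.57, while the endothelial median was 0.02, and their part in the member differences was not tested. Hepatocyte markers had a median difference of 2.13 at 8 weeks and -1.56 at 12 weeks, where Cyp2e1 alone of 19 was called, lower on HFD. At 4 weeks the 13 epididymis markers had a median difference of 1.73 with 0 called.

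**Figure D3:**
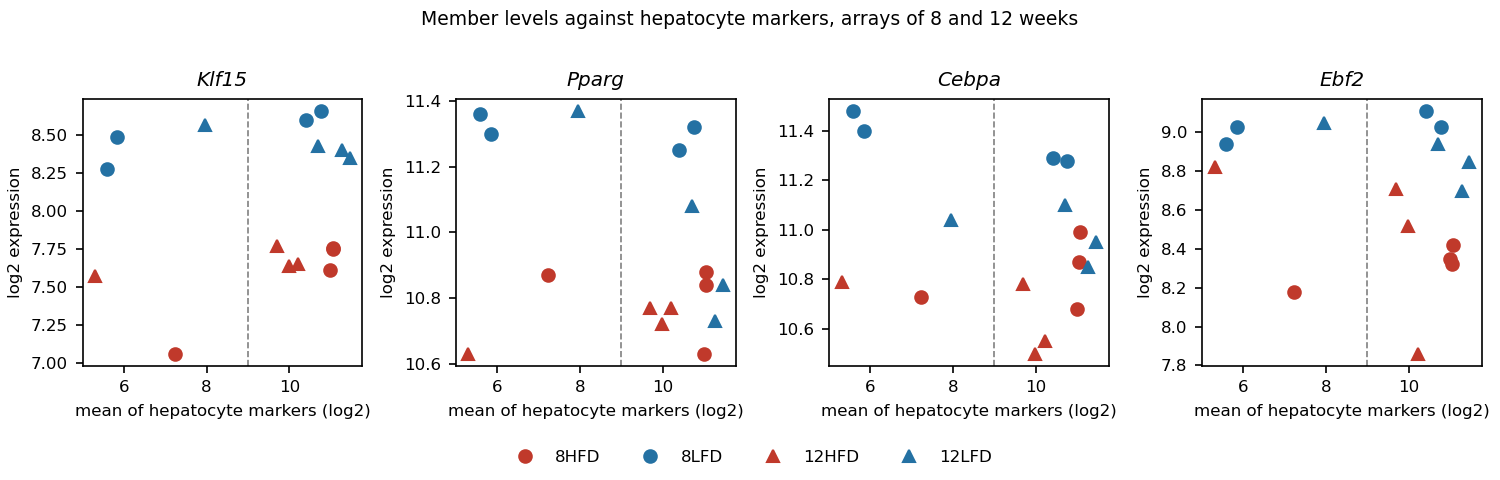
Log2 expression of Klf15, Pparg, Cebpa and Ebf2 (vertical axes) against the mean of 19 hepatocyte markers (horizontal axes, log2) in the 16 arrays of 8 and 12 weeks. Each point is 1 array, red for HFD and blue for LFD, circles for 8 weeks and triangles for 12 weeks, and the dashed line at 9 divides the arrays. All red Klf15 points lie below all blue ones on both sides of the line.

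The hepatocyte split crossed the diets, so the difference could be read on each side of it. For Klf15 at 8 weeks it was -0.92 among the 3 HFD and 2 LFD arrays with high hepatocyte markers and -1.33 between the remaining 1 HFD and 2 LFD arrays. At 12 weeks it was -0.71 among 3 HFD and 3 LFD arrays and -1.0 between 1 array of each diet. Klf15 was lower on HFD in all 4 settings, although a side with 1 HFD array is too small for a test. The part of hepatocyte RNA in the Klf15 difference was not tested. With both marker means as covariates the differences were -1.04 ± 0.16 at 8 weeks (adjusted p = 8.37e-04) and -0.73 ± 0.16 at 12 weeks (adjusted p = 0.00689).

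Cebpa at 8 weeks was -0.44 with high and -0.71 with low hepatocyte markers, and Ebf2 was -0.71 and -0.81 in the same order. Pparg was -0.50 and -0.46 at 8 weeks, but at 12 weeks -0.13 among 3 HFD and 3 LFD arrays with high markers, where the groups overlapped, and -0.74 between 1 array of each diet. Zfp423 at 12 weeks was 0.62 with high and 0.11 with low markers. Cebpd at 12 weeks was 0.16 with high and 1.14 with low markers.

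**Figure D4:**
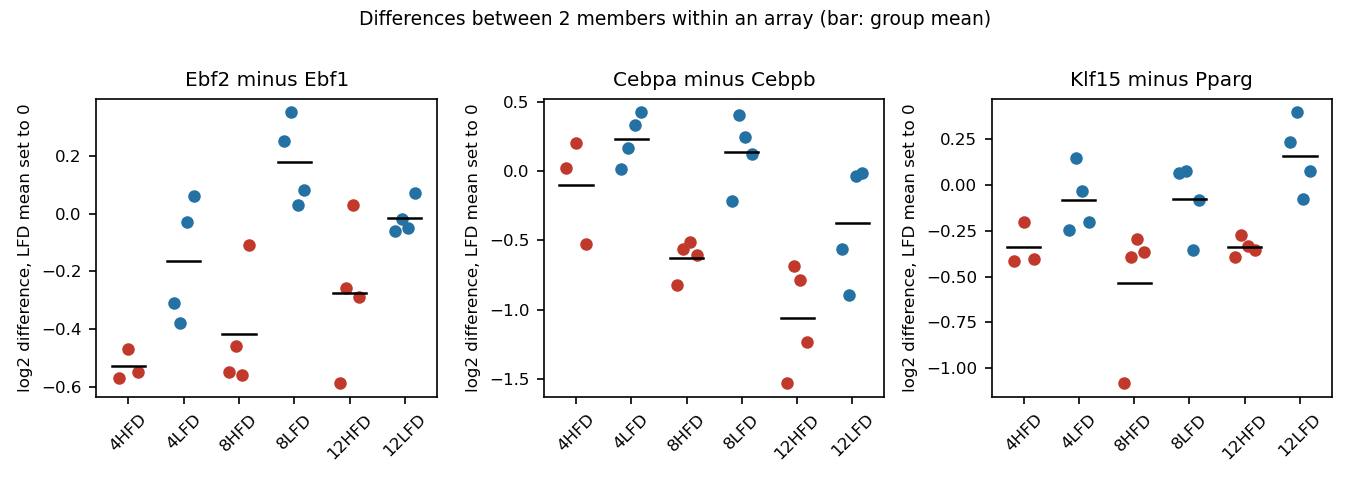
Differences between a pair of members within an array (vertical axes, log2 units, with the mean of the 12 LFD arrays set to 0), by group. Circles are arrays and bars are group means. HFD lies wholly below LFD for Ebf2 minus Ebf1 at 4 and 8 weeks, for Cebpa minus Cebpb at 8 weeks and for Klf15 minus Pparg at 12 weeks.

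Differences between members within an array cancel what scales a whole array. For 3 pairs at 3 times, exact permutation tests (two-sided, 9 tests) compared the diets. Each pair set a member that was lower on HFD against one that fell less or rose. Negative changes therefore follow from the differences given above and are not separate support for them. The adjustment over the 9 tests does not cover the choice of pairs. The change of Ebf2 relative to Ebf1 was -0.60 at 8 weeks (HFD minus LFD, exact p = 0.0286, adjusted p = 0.0857). That of Cebpa relative to Cebpb was -0.77 at 8 weeks and that of Klf15 relative to Pparg was -0.50 at 12 weeks, each with the same p values. These groups of 4 did not overlap, 0.0286 is the smallest p that 4 arrays against 4 can give, and none passed after adjustment over the 9 tests. At 4 weeks, with 3 arrays against 4, the smallest possible p was 0.0571, which Ebf2 relative to Ebf1 reached with a change of -0.36 and no overlap (exact permutation, adjusted p = 0.103).

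The genes with the most similar pattern were found for each member across the 25 arrays after the hepatocyte and epididymis means had been regressed out. The points share the arrays and the diets, so the correlations are descriptions. For Klf15 they were Acaca (r = 0.931), the rate-limiting enzyme of fatty acid synthesis, Aacs (r = 0.929) and Cntnap1 (r = 0.927), and over the 22 arrays r was 0.920, 0.898 and 0.906 in that order. For Ebf2 they were Car5b (r = 0.897), a mitochondrial carbonic anhydrase, Irs1 (r = 0.889), an adaptor of the insulin receptor, and Thrb (r = 0.887), a thyroid hormone receptor, with 0.891, 0.899 and 0.873 over the 22 arrays.

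For Cebpa they were Gata6 (r = 0.887), Adhfe1 (r = 0.883) and Gpat3 (r = 0.874), and for Pparg Plin1 (r = 0.807), Heph (r = 0.800) and Sfxn4 (r = 0.795). Over the 22 arrays r was 0.841, 0.786 and 0.799 for the genes near Cebpa, and for those near Pparg it was lower, at 0.752, 0.642 and 0.697. Plin1 is one of the target genes described above. For Zfp423 they were Rbms1 (r = 0.893), Ankrd44 (r = 0.890) and Dennd5a (r = 0.885), with 0.840, 0.816 and 0.789 over the 22 arrays.

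For Cebpb they were Nostrin (r = 0.892), Ostc (r = 0.882) and Dnajb11 (r = 0.842), the last of which encodes a chaperone of the endoplasmic reticulum. For Cebpd they were Tnfaip3 (r = 0.836), an inhibitor of NF-kappaB signalling, Nox4 (r = 0.781) and Tsc22d3 (r = 0.766), a glucocorticoid-induced gene. For Rxra they were Acads (r = 0.901), Stim1 (r = 0.887) and Jup (r = 0.883), and for Ebf1 Lama4 (r = 0.862), Pdzd2 (r = 0.852) and Ablim3 (r = 0.850). Over the 22 arrays r ranged from 0.868 to 0.889 for the genes of Cebpb, 0.826 to 0.844 for those of Rxra and 0.772 to 0.903 for those of Ebf1. For Cebpd it was 0.830 for Tnfaip3, 0.626 for Nox4 and 0.768 for Tsc22d3.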

How the data were processed

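Gonadal white fat of 25 mice was measured on Affymetrix Mouse Gene 2.0 ST arrays, 1 sample per array. The deposited values are log2 expression values, judged from their range of 1.73 to 14.13, and the authors processed the arrays in Transcriptome Analysis Console 4.0.2, per the design text in the labels. How background was corrected and arrays were normalized is not given in the sources used here.

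Of 34472 clusters, 25335 had an entry in the platform's gene table, 23521 with 1 symbol and 1814 with several, which were left out. The cluster with the highest mean stood for each gene, giving 22180 genes with no filter on low values. In R 4.3.3 with limma 3.58.1, 7 group means were fitted to all 25 arrays (18 residual degrees of freedom), with Benjamini-Hochberg adjustment per comparison and a threshold of 0.05. Groups counted as separated where all arrays of one lay above all arrays of the other. The fit was tested on simulated data.

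The members and gene lists were chosen with earlier results of these data known. All members are named. Of each other list, up to 4 called genes with the smallest p are named, plus Adipoq, Fabp4, Plin1 and Slc2a4, and the 3 genes most correlated with each member. Outside that rule, Tcf7l2, Egr2, Klf4, Klf6, Pdk4, Pdgfrb and Xist were named after their values were seen. Promoter letters come from RefSeq (GRCm38.p6), which gave windows for 7 of the members, and motifs were searched on both strands. Alternatives were quantile normalization, array medians, low-level filtering, other cluster rules, array weights, blocks, covariates, a fit of the compared groups alone, the submitters' 2-way analysis of variance, and leaving out arrays.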

Additional observations from a re-analysis of the deposited data

Results flagged for a closer look

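In Pparg on HFD at 8 weeks, replicate 3 had 10.63, away from the nearest value of 10.84 in a group that ranged over 10.63 to 10.88. It was the 1 such value among 45 sets tested for a sample far from the others, each set being 1 member in a group of 4 arrays. Chance alone flags about 1 set in 20, so 1 among 45 is no more than chance gives. The sets share arrays and are not independent. All 4 HFD arrays lay below the LFD arrays of that time.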

How the results depend on the processing

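Klf15 stayed lower on HFD in every alternative at 8 and 12 weeks and in the mean of the 3 times. Its calls held except in the fit to the 14 arrays without high hepatocyte markers. Those 14 include the chow and 4-week arrays. They keep 1 HFD and 2 LFD arrays at 8 weeks and 1 array of each diet at 12 weeks, too few for a test. Counts of other members varied between settings. The share of all genes called can vary too, and most settings here are given without it. Leaving out the 3 arrays with epididymis transcripts raised it from 2.4% to 5.64% at 8 weeks and from 4.46% to 8.41% at 12 weeks. In the mean of the 3 times it rose from 10.5% to 13.3%, and against chow it fell on both diets. A higher count of members therefore does not by itself set the members apart from all genes. At 4 weeks array weights gave 1 call (Klf15), against 0. At 8 weeks the compared groups alone, array weights and leaving out the 3 arrays with epididymis transcripts each gave 4, and marker covariates and the submitters' analysis of variance (unadjusted p, fold of at least 1.5) 2, against 1. At 12 weeks the compared groups alone, array weights and the arrays with high hepatocyte markers gave 2, and leaving out the 3 arrays gave 3, against 1. In the mean of the 3 times, the compared groups alone, array weights and leaving out the 3 arrays gave 5, covariates 4, and quantile normalization, the filter on low levels and the mean of a gene's clusters 2, against 1. For 12 against 4 weeks on HFD, covariates (Cebpa) and the analysis of variance (Cebpb) gave 1, against 0. For HFD against chow the counts were 1 with the compared groups alone, all clusters or hepatocyte arrays as a block, and 0 with array weights or covariates, against 3. For LFD against chow they were 0 with the compared groups alone, array weights, covariates or without the 3 arrays, against 1.

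Leaving out each array in turn gave 1 to 4 calls at 8 weeks, 1 to 2 at 12 weeks, 1 to 5 in the mean, 0 to 1 for 12 against 4 weeks on HFD, 1 to 6 for HFD against chow and 0 to 7 for LFD against chow, with the highest diet and chow counts without a chow array. The shares of all genes called in these fits are not given, so these counts are not read against them. In the mean of the 3 times Cebpd was called without HFD 4-week array 2 (adjusted p = 0.0381) and Ebf2 without LFD 4-week array 1 (adjusted p = 0.0346). Cebpb at 12 against 4 weeks on HFD was called without HFD 4-week array 3 (0.90, adjusted p = 0.0471). Deviations of same-numbered arrays correlated across genes between -0.61 (replicate 1 at 8 weeks) and 0.60 (replicate 3 at 12 weeks). These values do not settle whether replicate numbers pair the arrays. The 3 arrays with epididymis transcripts were all replicate 1, and at 12 weeks replicate 3 was the array without high hepatocyte markers on both diets. The main fit treated the arrays as unpaired. The replicate block gave 2 calls in the mean of the 3 times (Ebf2 added) and 1 for HFD against chow.

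Some directions turned. At 4 weeks Cebpa was 0.11 with covariates. Leaving out 1 array at a time, Cebpb at 4 weeks lay between -0.10 (without HFD array 3) and 0.39, and Cebpd at 8 against 4 weeks on HFD between -0.49 and 0.16 (without HFD 4-week array 3). For HFD against chow, leaving out 1 array gave -0.30 to 1.51 for Pparg, -0.69 to 0.97 for Cebpa, -0.20 to 0.76 for Rxra, -0.60 to 0.15 for Klf15, -0.58 to 1.48 for Ebf1 and -1.11 to 1.03 for Ebf2. For LFD against chow it gave -0.35 to 1.31 for Cebpa, -0.14 to 0.82 for Rxra, -0.48 to 1.58 for Ebf1 and -0.60 to 1.54 for Ebf2. The ends of these chow ranges came from leaving out chow array 1 or 2. Without the 3 arrays, HFD against chow was -0.30 for Pparg, -0.64 for Cebpa, -0.18 for Rxra and -0.55 for Ebf1, and LFD against chow was -0.31 for Cebpa, -0.43 for Ebf1 and -0.54 for Ebf2. With covariates Cebpa was -0.34 on HFD and Ebf2 -0.21 on LFD against chow. Sign changes of uncalled values smaller than 0.1 are not counted. The cause was not tested.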
